A study of Mus musculus with 12 samples.

Results

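The 10 genes described here mark rare granulocytes in mouse bone marrow and were taken from the count table by symbol: Mcpt8, Prss34, Cpa3, Hdc, Fcer1a and Ms4a2 for basophils and mast cells, and Prg2, Epx, Ear1 and Siglecf for eosinophils. They are 10 of 56350 genes in the deposited count table, each symbol matched 1 row, and all 10 were among the 17475 genes with enough counts to test.

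The RNA came from bone marrow cells of 12 C57BL/6 mice of 12 to 14 weeks, males and females. All 12 carried Shp2E76K/+;LysM-Cre+, that is, an activating allele of the phosphatase SHP2 (gene Ptpn11) together with a Cre recombinase inserted into the lysozyme gene Lyz2, which drives it in myeloid cells. Whether the allele was active in basophils, mast cells or eosinophils was not tested. Mice without the mutation were not analysed here, so each comparison is between treatments of mutant marrow. The combination group received PD-901 (PD0325901, an inhibitor of the kinase MEK) at 5 mg/kg by mouth for 20 doses and 5-azacitidine (an inhibitor of DNA methyltransferases) at 5 mg/kg by injection for 5 doses, over 4 weeks. The 5-azacitidine group and the PD-901 group received 1 of these drugs at the same dose, the vehicle group received neither drug, and each of the 4 groups held 3 separate mice.

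Basophils and mast cells are granulocytes that carry the high-affinity IgE receptor and release histamine, proteases and cytokines when it is cross-linked. Basophils finish their development in the marrow and circulate, whereas mast cells leave the marrow as progenitors and mature in tissues. Eosinophils depend on interleukin-5 and on the transcription factor GATA1, and their precursors in the marrow make the granule proteins that the mature cell stores. SHP2 and the RAS, MEK and ERK proteins signal below the receptors for interleukin-3, interleukin-5 and GM-CSF, cytokines on which these lineages depend.

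Total counts ran from 15356919 to 27148190 per library, and 18897 to 24194 genes were detected. Levels are given as CPM, a gene's count scaled to the library's counts of all tested genes after TMM normalization. Marrow markers were present in all 12 libraries, with neutrophil markers summing to between 37277 and 81252 CPM and Ptpn11 at 120.4 to 163 CPM. Libraries also differed in ways the groups do not state. Lyz2 stood at 44.9, 55.9 and 1151 CPM in the combination libraries, 1807 to 3389 CPM in the 5-azacitidine libraries, 699.6 to 4182 CPM in the PD-901 libraries, and 172, 147 and 3228 CPM in the vehicle libraries. Xist, the RNA made from the inactive X chromosome of females, was above 100 CPM in 0 of 3 combination, 1 of 3 5-azacitidine, 2 of 3 PD-901 and 3 of 3 vehicle libraries, although the labels call the experiments matched for sex and give no sex for a single mouse. The combination and vehicle groups therefore cannot be told apart from the Xist classes, and no vehicle library is among the 6 with low Xist. Mcpt8, Hdc and Ear1 are also given within those 6 libraries for the combination against the single drugs.

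Among the 10 genes, levels per kilobase of exon ranged widely. In vehicle marrow Prg2 (372 ± 200.4 CPM per kb, SD, n = 3) and Prss34 (353 ± 56.7) stood highest and did not differ beyond their spread. Mcpt8 followed at 194 ± 40.7 CPM per kb, apart from its neighbours in all libraries. Hdc (51.2), Epx (43.7), Cpa3 (39.3) and Ear1 (33.2) formed a run of overlapping levels, then came Ms4a2 (14.0), Fcer1a (6.44) and Siglecf (4.79). The granule protease and granule protein transcripts were thus the abundant ones, and those of the surface receptors the scarce ones. In combination marrow the order of the first 7 genes was the same, with Prg2 at 214 ± 142 and Prss34 at 137 ± 40.0 CPM per kb, but the last 3 genes lay close together, Siglecf at 8.60, Fcer1a at 7.63 and Ms4a2 at 7.06.

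**Figure D1:**
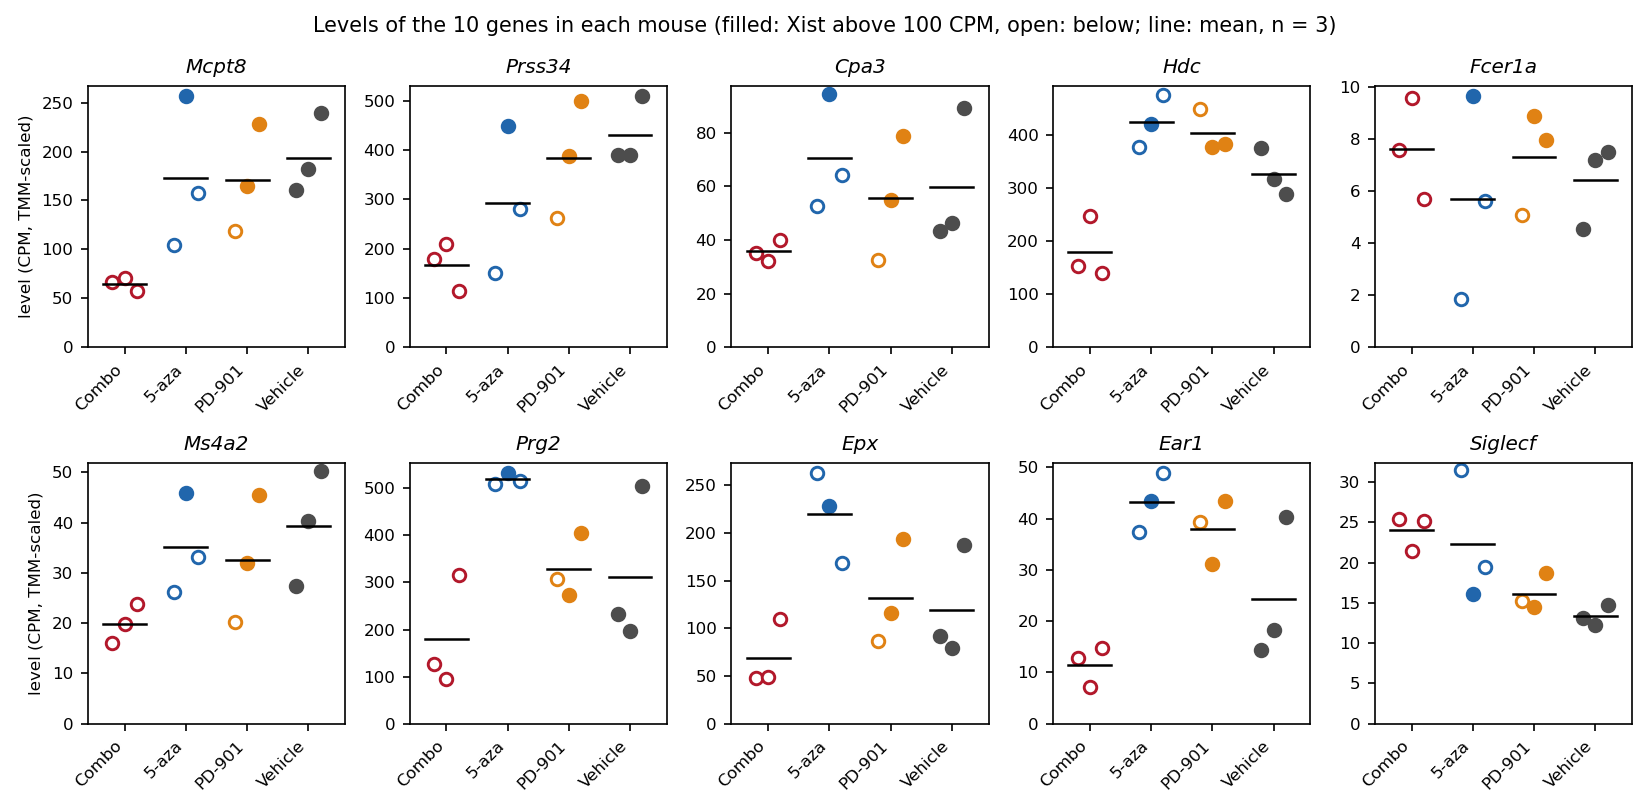
Level of each of the 10 genes (y axis, CPM, scale from 0 in each panel) in the 3 mice of each group (x axis), with the group mean as a line and filled points for libraries with Xist above 100 CPM. The combination points lie below all vehicle points for Mcpt8, Prss34, Cpa3, Hdc and Ms4a2 and above them for Siglecf.

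Set against vehicle, combination marrow held less RNA of the basophil proteases, of the histamine-forming enzyme, of the IgE receptor beta chain Ms4a2 and of Ear1, and more Siglecf. Of the 10 genes 5 fell (Mcpt8, Prss34, Hdc, Ms4a2 and Ear1) and 1 rose (Siglecf) by edgeR's quasi-likelihood test at an adjusted p of 0.05, where 7.97% of all tested genes fell and 5.78% rose. Combination libraries lay below all vehicle libraries for 5 of the 10 genes and above them for 1, beside 15.9% and 16.1% of all tested genes. The median log2 change of the 10 genes was -0.83, beside 0.01 for all tested genes. In whole marrow, fewer cells of a type and less RNA per cell cannot be told apart. In these sentences and below, an adjusted p is Benjamini-Hochberg over all 17475 genes in the fit of all 12 libraries, unless another fit is named. Those other fits were adjusted over the genes that they tested.

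Mcpt8, a serine protease of mouse basophils (chr14:56082166-56085273, minus strand, mm10), had 66.8, 70.8 and 57.0 CPM in the combination libraries, 105, 257 and 157 CPM in the 5-azacitidine libraries, 119, 165 and 228 CPM in the PD-901 libraries, and 160.5, 182 and 239 CPM in the vehicle libraries. The 3 combination libraries were the lowest of all 12, with no overlap with any other group. Mcpt8 was 2.99-fold lower in combination than in vehicle marrow (log2 change -1.58 ± 0.29, SE; edgeR adjusted p = 0.00515). It passed the threshold in each of the 12 fits that left out 1 library, with an adjusted p of at most 0.0353.

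Prss34, the basophil protease also known as mMCP-11 (chr17:25298394-25300165, plus strand), had 179, 209 and 114 CPM in the combination libraries, 149.8, 449 and 281 CPM in the 5-azacitidine libraries, 263, 388 and 499 CPM in the PD-901 libraries, and 391, 390.2 and 511 CPM in the vehicle libraries. The combination libraries lay below all vehicle and PD-901 libraries, but 1 5-azacitidine library was as low. The change over vehicle was 2.58-fold lower (log2 -1.36 ± 0.34; edgeR adjusted p = 0.0205). It missed the threshold without vehicle 1 (0.0701), vehicle 3 (0.0697), combination 1 (0.0943) or combination 3 (0.0997), with log2 changes of Prss34 from -1.56 to -1.15 over the 12 fits that leave out a library.

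Hdc, histidine decarboxylase, which makes histamine and is also transcribed in other immature myeloid cells of mouse marrow (chr2:126593667-126619299, minus strand), had 152, 248 and 139.8 CPM in the combination libraries, 377, 421 and 475 CPM in the 5-azacitidine libraries, 448, 377 and 382 CPM in the PD-901 libraries, and 374, 317 and 289 CPM in the vehicle libraries. All combination libraries were below every library of the other 3 groups. Hdc fell 1.82-fold against vehicle (log2 -0.86 ± 0.19; edgeR adjusted p = 0.00994), and its adjusted p was 0.0596 without combination 1 and 0.0517 without combination 3.

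Cpa3, the carboxypeptidase stored in mast cell granules and also made by mouse basophils (chr3:20215620-20242181, minus strand), had 35.0, 32.2 and 40.0 CPM in the combination libraries, 52.6, 94.3 and 64.2 CPM in the 5-azacitidine libraries, 32.7, 54.8 and 78.9 CPM in the PD-901 libraries, and 43.4, 46.2 and 89.2 CPM in the vehicle libraries. The combination libraries lay below the vehicle libraries, yet the nearest values were close (40.0 and 43.4 CPM). Its difference from vehicle did not pass (log2 -0.74 ± 0.32; edgeR adjusted p = 0.155). The ratio of Cpa3 to Mcpt8 counts was 0.455 to 0.701 in combination libraries, 0.367 to 0.502 in 5-azacitidine libraries, 0.275 to 0.346 in PD-901 libraries and 0.254 to 0.373 in vehicle libraries, so this ratio was higher in all combination than in all vehicle libraries.

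The IgE receptor is built from an alpha chain that binds IgE (Fcer1a), a beta chain that amplifies the signal (Ms4a2) and a gamma chain shared with other receptors (Fcer1g), and of the alpha and beta chains only the beta chain passed the test. Ms4a2 (chr19:11615523-11623719, minus strand) had 16.1, 19.8 and 23.7 CPM in the combination libraries, 26.2, 45.9 and 33.1 CPM in the 5-azacitidine libraries, 20.3, 31.9 and 45.5 CPM in the PD-901 libraries, and 27.3, 40.3 and 50.2 CPM in the vehicle libraries. Combination and vehicle libraries did not overlap, and Ms4a2 was 1.98-fold lower in the combination group (log2 -0.98 ± 0.29; edgeR adjusted p = 0.0390). The Ms4a2 call was lost without vehicle 2 (0.0937) or 3 (0.129), without combination 1 (0.166), 2 (0.0778) or 3 (0.0656), and without PD-901 2 (0.0572) or 5-azacitidine 3 (0.0583).

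Fcer1a (chr1:173221284-173227214, minus strand) rested on 28 to 219 counts per library. It had 7.58, 9.59 and 5.68 CPM in the combination libraries, 1.85, 9.65 and 5.60 CPM in the 5-azacitidine libraries, 5.08, 8.91 and 7.97 CPM in the PD-901 libraries, and 4.56, 7.20 and 7.51 CPM in the vehicle libraries. All groups overlapped (log2 change of combination over vehicle 0.24 ± 0.44; edgeR adjusted p = 0.801). The ratio of Fcer1a to Ms4a2 counts was 0.472, 0.485 and 0.240 in combination libraries, against 0.167, 0.178 and 0.149 in vehicle libraries, without overlap; it was 0.0704 to 0.210 in 5-azacitidine libraries and 0.175 to 0.279 in PD-901 libraries. This ratio was not tested.

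The bases just upstream of the start sites are shown for Mcpt8 and 4 other genes of the basophil and mast cell group. The 250 bases of those 4 held AGATAA or TGATAA on either strand, called a GATA motif here and among the letters bound by GATA1 and GATA2. Mcpt8, the member with the lowest adjusted p against vehicle, held none. Other GATA letters were not searched, such as the TGATAG that the Hdc window holds. Sequences are RefSeq's on GRCm38.p6, read 5′ to 3′ on the gene's strand up to the base before the start site, with GATA motifs in capitals. The Mcpt8 window is chr14:56085198-56085447 (minus strand), and those of Prss34, Cpa3, Fcer1a and Ms4a2 are chr17:25298144-25298393 (plus strand), chr3:20242182-20242431 (minus strand), chr1:173227230-173227479 (minus strand) and chr19:11623720-11623969 (minus strand).
Mcpt8: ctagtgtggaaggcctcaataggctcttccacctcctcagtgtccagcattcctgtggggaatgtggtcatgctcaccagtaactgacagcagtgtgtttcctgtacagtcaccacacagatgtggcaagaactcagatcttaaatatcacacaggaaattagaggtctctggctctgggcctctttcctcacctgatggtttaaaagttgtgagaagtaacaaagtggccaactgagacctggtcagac
Prss34: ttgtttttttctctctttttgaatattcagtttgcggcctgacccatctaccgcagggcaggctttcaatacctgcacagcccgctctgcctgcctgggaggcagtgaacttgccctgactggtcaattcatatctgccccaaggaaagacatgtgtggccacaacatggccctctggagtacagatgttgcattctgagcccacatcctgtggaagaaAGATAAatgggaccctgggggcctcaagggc
Cpa3: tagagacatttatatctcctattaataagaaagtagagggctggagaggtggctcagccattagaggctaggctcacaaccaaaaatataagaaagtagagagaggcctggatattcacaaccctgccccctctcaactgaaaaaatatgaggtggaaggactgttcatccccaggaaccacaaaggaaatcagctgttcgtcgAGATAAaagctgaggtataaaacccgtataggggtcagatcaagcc
Fcer1a: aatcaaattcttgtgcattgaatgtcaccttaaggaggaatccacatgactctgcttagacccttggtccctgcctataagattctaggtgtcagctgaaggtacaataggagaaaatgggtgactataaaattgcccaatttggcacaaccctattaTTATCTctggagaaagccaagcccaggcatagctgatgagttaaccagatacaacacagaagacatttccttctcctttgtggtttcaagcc
Ms4a2: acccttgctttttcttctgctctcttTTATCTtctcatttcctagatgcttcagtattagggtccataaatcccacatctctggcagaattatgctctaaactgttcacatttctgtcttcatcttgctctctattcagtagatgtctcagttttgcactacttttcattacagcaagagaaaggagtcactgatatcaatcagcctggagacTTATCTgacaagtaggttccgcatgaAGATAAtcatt
The Prss34 window held AGATAA at -31 to -26 from the start site and the Cpa3 window held it at -46 to -41. Fcer1a held the reverse complement TTATCT at -92 to -87, and Ms4a2 held TTATCT at -224 to -219 and at -37 to -32 and AGATAA at -11 to -6. Of the 9 of the 10 genes found in the RefSeq promoter table (Prg2 was not), 4 held a GATA motif, searched as AGATAA and TGATAA on both strands, as did 16.6% of 32841 promoter windows of the same length. Of the other motifs searched on both strands, an E-box (CAGCTG or CATCTG) was found in 4 of 9 members and 25.5% of windows, and the ETS letters AGGAAG in 3 of 9 and 29.5%. A match in such a window is a description of letters and not of binding, and its bearing on the changes was not tested. RefSeq's start sites can differ from the outer ends of the counted genes. The Mcpt8 window overlaps the counted gene, whose outer end is chr14:56085273.

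Of the eosinophil genes, combination marrow had less Ear1 and more Siglecf than vehicle marrow, while Prg2 and Epx did not pass the test. Prg2, the major basic protein of eosinophil granules (chr2:84980461-84983632, plus strand), had 128, 94.5 and 315 CPM in the combination libraries, 509, 533 and 516 CPM in the 5-azacitidine libraries, 307, 273 and 404 CPM in the PD-901 libraries, and 232, 198 and 504 CPM in the vehicle libraries. The 5-azacitidine libraries were the 3 highest of all 12, while in each of the combination and vehicle groups 1 library, replicate 3, stood far above the other 2. The change of combination over vehicle was within that spread (log2 -0.80 ± 0.41; edgeR adjusted p = 0.242). Prg2 passed in 1 of the 12 fits without a library, that without combination 3 (edgeR adjusted p = 0.0298), where 5.66% of all tested genes were called.

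Epx, eosinophil peroxidase (chr11:87864000-87875536, minus strand), had 48.4, 49.2 and 110.2 CPM in the combination libraries, 263, 229 and 169 CPM in the 5-azacitidine libraries, 86.5, 116 and 194 CPM in the PD-901 libraries, and 91.8, 79.8 and 187 CPM in the vehicle libraries. As for Prg2, replicate 3 stood above the other libraries of the combination and of the vehicle group, but PD-901 3 and vehicle 3 exceeded 1 of the 5-azacitidine libraries. Combination and vehicle libraries overlapped (log2 -0.79 ± 0.40; edgeR adjusted p = 0.232). The ratio of Epx to Prg2 counts stayed between 0.282 and 0.520 in all 12 libraries.

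Ear1, an eosinophil-associated ribonuclease (chr14:43818765-43875517, minus strand), had 12.7, 7.14 and 14.7 CPM in the combination libraries, 37.3, 43.4 and 48.9 CPM in the 5-azacitidine libraries, 39.4, 31.1 and 43.3 CPM in the PD-901 libraries, and 14.3, 18.2 and 40.3 CPM in the vehicle libraries. The combination libraries were below all libraries of both single drugs and touched the vehicle range. Ear1 was 2.11-fold lower than in vehicle (log2 -1.07 ± 0.34; edgeR adjusted p = 0.0488), a call that held in 1 of the 12 fits without a library, that without vehicle 1, and whose log2 change was -0.50 (0.246) without vehicle 3. The Ear genes are near-identical copies and Ear1 shares 17 exon bases with the pseudogene Ear-ps9, so how reads were divided among them is uncertain.

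Siglecf, a sialic acid receptor on the surface of mouse eosinophils (chr7:43351341-43359531, plus strand), had 25.4, 21.4 and 25.1 CPM in the combination libraries, 31.5, 16.0 and 19.4 CPM in the 5-azacitidine libraries, 15.2, 14.5 and 18.7 CPM in the PD-901 libraries, and 13.1, 12.2 and 14.7 CPM in the vehicle libraries. All combination libraries were above all PD-901 and vehicle libraries. It was 1.80-fold higher than in vehicle (log2 0.84 ± 0.23; edgeR adjusted p = 0.0241), and the Siglecf call was lost without vehicle 1 (0.0745) or 2 (0.0853) or without combination 1 (0.0886) or 3 (0.0748). The ratio of Siglecf to Epx counts was 0.228 to 0.525 in combination libraries, against 0.0785 to 0.153 in vehicle libraries, where both are eosinophil genes.

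Library properties moved with these differences. Combination and vehicle libraries differ in Xist class without exception, and with that class as a term in the edgeR fit 0 of the 10 genes and 0 of all tested genes passed against vehicle, with 4 of the 10 and 16.2% of all genes at an unadjusted p under 0.05. The log2 changes over vehicle then stood at -0.73 for Mcpt8, -0.46 for Prss34, -0.20 for Ms4a2, -0.99 for Hdc, -1.11 for Ear1 and 0.58 for Siglecf, with adjusted p from 0.103 for Hdc to 0.855 for Ms4a2. Leaving out the 4 libraries lowest in Lyz2 left 1 combination and 1 vehicle library, assumed to vary like the other groups. The log2 changes over vehicle were then -2.07 for Mcpt8, -2.17 for Prss34, -1.08 for Ms4a2, -1.05 for Hdc, -1.45 for Ear1 and 0.77 for Siglecf. These carry no replicate check of either group. Replicate 3, the library with the most Lyz2 in its group, was also the highest in Prg2, Epx and Ear1 in the combination and in the vehicle group. This did not hold in the other groups: Lyz2 was highest in PD-901 1, whereas Prg2, Epx and Ear1 were highest in PD-901 3, and 5-azacitidine 2, with the most Lyz2 of its group, was highest in Prg2 but not in Epx or Ear1. The part of Lyz2 level in these values was not tested.

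Against each single drug, the combination showed lower Mcpt8, Hdc and Ear1. Over PD-901, 3 of the 10 genes fell and 0 rose, where 5.12% of tested genes fell and 1.69% rose. The log2 changes were -1.40 ± 0.29 for Mcpt8 (edgeR adjusted p = 0.0126), -1.16 ± 0.19 for Hdc (0.00376) and -1.72 ± 0.34 for Ear1 (0.00887). Prss34 in combination libraries lay below all PD-901 libraries and missed the threshold (-1.20, edgeR adjusted p = 0.0538), and Siglecf lay above them and missed it too (0.57, 0.149). In all, 4 of the 10 genes lay below and 1 above without overlap, beside 15% and 12.7% of all tested genes. Hdc and Ear1 passed in each of the 12 fits that left out 1 library. They also passed with Xist as a term, where 2.98% of all tested genes were called. Mcpt8 missed the threshold without PD-901 3 (0.0519), combination 1 (0.0677) or combination 3 (0.0730), and with Xist as a term (log2 -0.79, edgeR adjusted p = 0.0816). Within the Xist-low libraries, which hold 1 PD-901 library, the log2 changes were -0.86 for Mcpt8, -1.31 for Hdc and -1.75 for Ear1. Without the 4 libraries lowest in Lyz2, which leaves 1 combination library, they were -1.59 for Mcpt8, -1.53 for Hdc and -1.38 for Ear1. Neither fit has a replicate check of the group with 1 library.

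Over 5-azacitidine, again 3 of the 10 genes fell and 0 rose, where 1.07% of tested genes fell and 0.252% rose. The log2 changes were -1.42 ± 0.29 for Mcpt8 (edgeR adjusted p = 0.0374), -1.24 ± 0.19 for Hdc (0.0250) and -1.90 ± 0.34 for Ear1 (0.0303). Combination libraries lay below all 5-azacitidine libraries for 7 of the 10 genes, Epx (-1.67, 0.0672), Prg2 (-1.53, 0.0934), Cpa3 (-0.98, 0.151) and Ms4a2 (-0.82, 0.182) among them, beside 9.54% of all tested genes. Each of the 3 calls was lost without 5-azacitidine 2 or 3 or combination 1 or 3, with adjusted p of 0.0668 to 0.117 for Hdc, 0.0810 to 0.134 for Ear1 and 0.112 to 0.164 for Mcpt8, and the Mcpt8 call also without vehicle 2 (0.0570) or PD-901 2 (0.0619). These 2 comparisons and that with vehicle share the combination libraries.

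Within the 6 libraries with low Xist, the 3 combination libraries lay below the 3 single-drug libraries for these 3 genes. That order was fixed in advance, because all combination libraries lay below all single-drug libraries for these genes. It therefore gives no separate check against Xist class. Mcpt8 had at most 70.8 CPM in the combination libraries, against 105 and 157 CPM in 5-azacitidine and 119 CPM in PD-901 libraries. Hdc had at most 248 CPM in the combination libraries, against 377 and 475 CPM in 5-azacitidine and 448 CPM in PD-901 libraries. Ear1 had at most 14.7 CPM in the combination libraries, against 37.3 and 48.9 CPM in 5-azacitidine and 39.4 CPM in PD-901 libraries. In an edgeR fit of these 6 libraries alone, the log2 changes against the 1 PD-901 library were -0.86 for Mcpt8, -1.31 for Hdc and -1.75 for Ear1. Against the 2 5-azacitidine libraries they were -0.99 for Mcpt8, -1.22 for Hdc and -1.87 for Ear1. With 1 PD-901 library there, its spread was assumed to be that of the combination and 5-azacitidine libraries. The fit therefore has no replicate check of the PD-901 group, and its calls are not given.

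Neither single drug gave a call among the 10 genes against vehicle. PD-901 against vehicle called 0 of the 10 genes and 0% of all tested genes by edgeR, with 0 of the 10 and 4.88% of all genes at an unadjusted p under 0.05. Their log2 changes ran from -0.27 for Ms4a2 to 0.64 for Ear1, and the 3 PD-901 libraries were above all vehicle libraries only for Hdc (0.30 ± 0.19; edgeR adjusted p = 0.960), beside 6.83% of all genes. 5-azacitidine against vehicle called 0 of the 10 genes by edgeR and 0.00572% of all genes (1 gene). DESeq2 and limma-voom also called 0 of the 10 genes in both comparisons. Of all genes, DESeq2 called 0.0286% under PD-901 and 3.51% under 5-azacitidine, and limma-voom called 0% and 0.0114%.

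All 4 eosinophil genes had positive changes under 5-azacitidine, as they did under PD-901, though none passed. Siglecf (0.74 ± 0.23; edgeR adjusted p = 0.165), Ear1 (0.83 ± 0.33, 0.257) and Epx (0.88 ± 0.40, 0.323) had an unadjusted p under 0.05, as 15.3% of all genes did, and Prg2 stood at 0.74 ± 0.41 (0.424). The 5-azacitidine libraries lay above all vehicle libraries for Hdc, Prg2 and Siglecf, beside 10.8% of all genes. The basophil proteases stood below 0, at -0.16 ± 0.29 for Mcpt8 and -0.55 ± 0.34 for Prss34. Leaving out the 4 libraries lowest in Lyz2 left 1 vehicle library. The log2 changes under 5-azacitidine were then 0.05 for Prg2, 0.11 for Ear1, 0.24 for Epx and 0.60 for Siglecf.

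**Figure D2:**
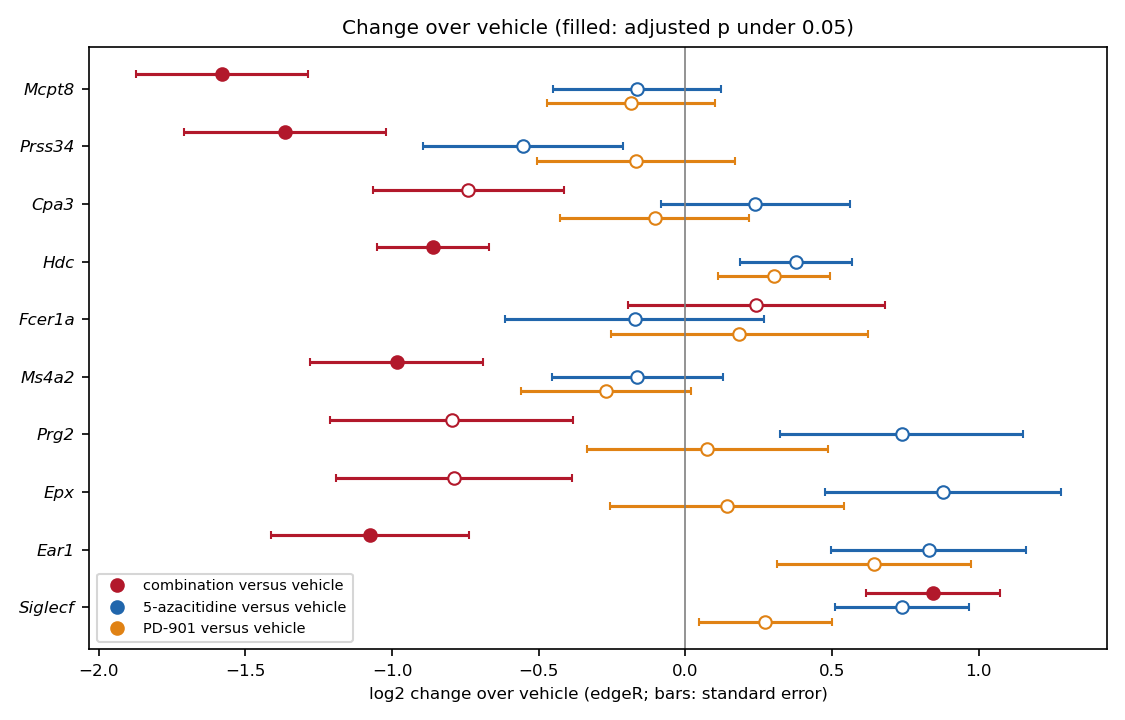
Log2 change over vehicle (x axis, edgeR, with the standard error as a bar) of each gene (y axis) under the combination, 5-azacitidine and PD-901, with filled points at an adjusted p under 0.05. Only combination points are filled, 5 below 0 and Siglecf above it, and Ear1 lies at -1.07 under the combination, 0.83 under 5-azacitidine and 0.64 under PD-901.

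The joint action of the drugs was tested as an interaction, the departure of the combination from the sum of both single-drug changes on the log2 scale. By edgeR 0 of the 10 genes and 0% of all tested genes passed, while 5 of the 10 and 10.7% of all genes had an unadjusted p under 0.05. The departures furthest from 0 were those of Ear1 (-2.55 ± 0.47; edgeR adjusted p = 0.104), Epx (-1.81 ± 0.57, 0.274), Prg2 (-1.61 ± 0.59, 0.341) and Hdc (-1.54 ± 0.27, 0.104). DESeq2 called Hdc and Ear1 in the interaction, beside 1.65% of all genes, and limma-voom called 0 of the 10 and 0% of all genes. Both single drugs lay above vehicle in the mean for Ear1, Epx, Prg2 and Hdc and the combination below it, a layout that the interaction test did not call at its threshold. The test of any difference among the 4 groups called Hdc (edgeR adjusted p = 0.0107), Ear1 (0.0174) and Mcpt8 (0.0207), 3 of the 10 genes, beside 6.96% of all genes.

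Summed levels separated the combination group on the basophil axis and less so on the eosinophil axis. The 6 basophil and mast cell genes summed to 380, 457 and 589 CPM in combination libraries, 712 to 1277 CPM in 5-azacitidine, 888 to 1242 CPM in PD-901 and 983 to 1185 CPM in vehicle libraries, with the combination below all others. The 4 eosinophil genes summed to 172, 214 and 466 CPM in combination libraries, 753 to 841 CPM in 5-azacitidine, 434 to 660.5 CPM in PD-901 and 308, 351 and 747 CPM in vehicle libraries. Here the highest combination library exceeded the 2 lowest vehicle libraries, and all 5-azacitidine libraries exceeded all others. Most of these sums came from Prss34, Hdc and Prg2, the genes with the most counts.

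**Figure D3:**
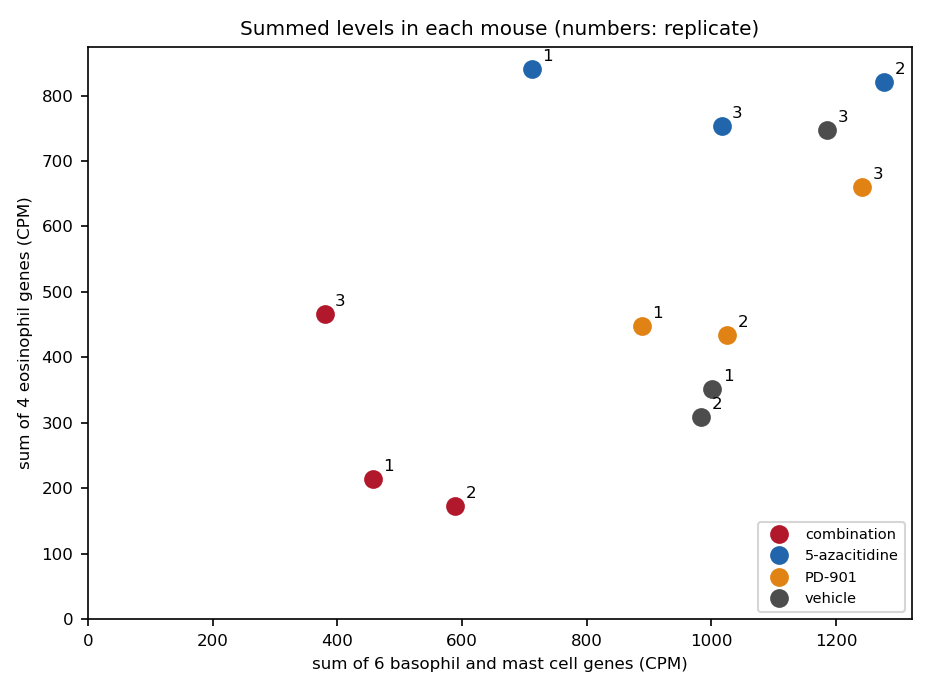
Sum of the 6 basophil and mast cell genes (x axis, CPM) against the sum of the 4 eosinophil genes (y axis, CPM), 1 point for each of the 12 mice with its replicate number. The 3 combination points lie left of all others, at or under 589 CPM, and the 3 5-azacitidine points lie highest, at or above 753 CPM.

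Across the 12 libraries, some of the 10 genes varied together, given here as Pearson correlations of log2 CPM between values that share libraries and scaling. Mcpt8 went with Prss34 (0.93) and Ms4a2 (0.89), and Ms4a2 with Cpa3 (0.90). Prg2 went with Epx (0.95) and Ear1 (0.90). Pairs across the basophil and eosinophil groups could be as close, Cpa3 with Epx (0.83) and Prg2 (0.77) beside Cpa3 with Mcpt8 (0.82) and Prss34 (0.65), so the groups were not separate sets. Against the mean of the other genes of its own group, Fcer1a stood at 0.21, Hdc at 0.50 and Siglecf at -0.04, so the IgE-binding chain and the eosinophil surface receptor were the members that followed their groups least. Outside the 10 genes, Cd200r3 (0.93) was likest to the mean of the basophil and mast cell genes. It is an activating receptor of mouse basophils and mast cells. Then came Rpl3l (0.93), at only 0.237 to 1.22 CPM, Rtp4 (0.92), Ifi35 (0.92) and Oasl2 (0.91), the last 3 known as interferon-induced genes. Likest to the eosinophil mean were Adgrl3 (0.95), Kcna7 (0.95), Prg3 (0.95), another eosinophil granule protein at 3.57 to 27.0 CPM, Vmn1r13 (0.93) and Gm11338 (0.92), of which Kcna7, Vmn1r13 and Gm11338 stayed under 1 CPM. Cd200r3 had 5.50, 7.29 and 6.86 CPM in combination libraries, against 15.8, 18.0 and 20.5 CPM in vehicle libraries, a difference that its choice by likeness to the members fixes in part.

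Other genes of the same cells were counted in lists, with the combination set against vehicle and the backgrounds of 7.97% lower and 5.78% higher. The lists overlap, so the calls of Gata1, Gata2, Irf8 and Ctsg each count in every list that holds the gene. Of 23 tested other basophil genes 9 fell and 0 rose (median log2 -0.96). The cytokine Osm fell 1.46 on the log2 scale (edgeR adjusted p = 0.00412), the leukotriene-forming lipoxygenase Alox5 fell 1.09 (0.00485) and the tetraspanin Cd9 fell 0.96 (0.00378), each with combination libraries below all vehicle libraries, while the early response gene Ier3 stood at -0.73 (0.0643). Over PD-901 9 of the 23 fell, where 5.12% of all tested genes did, and over 5-azacitidine 2 fell, where 1.07% did. The list includes genes that neutrophils and monocytes also make, Osm, Alox5 and Cd9 among them.

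The mast cell list gave a single call. Of 9 tested other mast cell genes 0 fell and 1 rose, Ctsg (log2 0.97 ± 0.24; edgeR adjusted p = 0.0153), a protease that neutrophil precursors also store in their primary granules. Kit, the receptor for stem cell factor that progenitors also carry, had a log2 change of 0.18 (0.471) and the granule proteoglycan Srgn of 0.21 (0.525). The genes restricted to mature mast cells were near 0: the tryptases Tpsb2, Tpsab1 and Tpsg1, the chymases Cma1, Mcpt1, Mcpt2, Mcpt4 and Mcpt9, and the receptors Mrgprb1 and Mrgprb2 summed to 0.0510 to 3.00 CPM in combination libraries, 0 to 1.91 CPM in 5-azacitidine, 0.159 to 1.34 CPM in PD-901 and 0 to 0.275 CPM in vehicle libraries. The highest single value among them was 1.91 CPM, of Cma1, which had 0 counts in all vehicle libraries. Defining mast cell markers were thus at or near 0 beside 32.2 to 94.3 CPM of Cpa3, the member that mast cells share with basophils.

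Of 14 other eosinophil genes tested 4 fell and 1 rose (median log2 -0.47). The ribonuclease Ear2 had 20.6, 16.9 and 24.4 CPM in combination libraries, against 47.7, 41.6 and 81.5 CPM in vehicle libraries, and fell 1.46 on the log2 scale (edgeR adjusted p = 0.00515), subject to the same doubt about copies as Ear1. The lipoxygenase Alox15 fell 1.38 (0.0207) and the sphingosine phosphate receptor S1pr4 fell 0.74 (0.00949), while Ear6 stood at -0.90 (0.155). Named after their values were seen, the other gene that fell was Adgre1, the F4/80 antigen that macrophages share (-1.27, 0.0161), and the gene that rose was Gata1 (1.01, 0.0191), which erythroid cells also transcribe. Ear10 and Ear14 were at or near 0. Which marrow cells made the RNA of these listed genes was not tested.

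Of 23 genes of IgE receptor signalling and granulocyte cytokine receptors 12 fell and 1 rose (median log2 -0.53). Fcer1g, the gamma chain of the IgE receptor and of other Fc receptors, had 225, 219 and 174 CPM in combination libraries, against 413, 387 and 393 CPM in vehicle libraries, and fell 0.95 on the log2 scale (edgeR adjusted p = 0.00318). The kinase Lyn, which starts signalling from that receptor, fell 0.92 (0.00330) and Crlf2, a chain of the receptor for TSLP, fell 0.98 (0.00251). Both Fcer1g and Lyn are made by most myeloid cells. Ptger3, a receptor for prostaglandin E2, was the gene that rose, with 13.6, 9.89 and 9.66 CPM in combination libraries, against 2.25, 3.65 and 3.67 CPM in vehicle libraries (log2 1.79 ± 0.32, 0.00378). So of the 3 receptor chains, beta and gamma fell and alpha did not pass.

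Of 24 regulators of granulocyte lineages 10 fell and 2 rose (median log2 -0.43). Trib1, a pseudokinase needed for eosinophil identity in mice, fell 1.99 on the log2 scale (edgeR adjusted p = 0.00290), Irf8 fell 1.14 (0.00605), Lmo4 fell 0.79 (0.00427) and Spi1, the factor PU.1, fell 0.78 (0.00744). Named after their values were seen, Gata2, which basophil and mast cell development requires, had 37.8, 45.4 and 66.7 CPM in combination libraries, against 74.2, 105.8 and 176 CPM in vehicle libraries, without overlap (-1.25 ± 0.32, 0.0212), and the 2 that rose were Gata1 (1.01, 0.0191) and Tal1 (1.01, 0.0211).

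**Figure D4:**
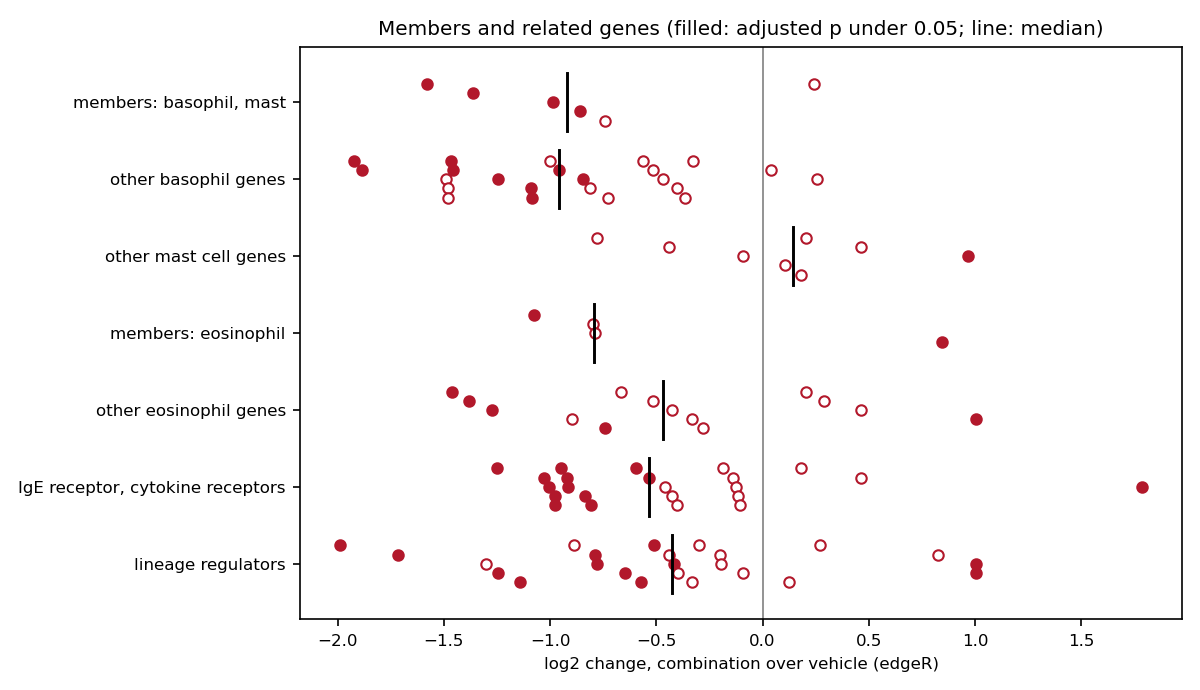
Log2 change of the combination over vehicle (x axis, edgeR) for the 10 genes and for the related lists (rows), 1 point per tested gene, filled at an adjusted p under 0.05, with the median as a line. Cma1 is left out of the mast cell row and its median because all vehicle libraries had 0 counts. The other basophil genes centre at -0.96, and the other mast cell genes lie on both sides of 0.

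Markers of other marrow cells moved in the same comparison. Of 16 neutrophil markers 6 fell and 4 rose, and their sum was 37277 to 41775 CPM in combination libraries, against 39838 to 76152 CPM in vehicle libraries. Of 11 monocyte markers 7 fell (2087 to 3827 CPM, against 4600 to 5644 CPM in vehicle libraries), and of 10 B cell markers 7 fell (93.7 to 209 CPM, against 343 to 368 CPM in vehicle libraries). Of 14 erythroid markers 13 rose (2964 to 8867 CPM, against 1872 to 3074 CPM in vehicle libraries). Megakaryocyte markers gave 0 calls of 7, T and NK cell markers 1 of 8 (Ncr1, lower) and stem and progenitor markers 1 of 9 (Gata2, lower), both named after their values were seen. The part of these shifts in the lower levels of the basophil and eosinophil genes was not tested.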

How the data were processed

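Bone marrow RNA of 12 mice, 4 groups of 3, was taken with an integrity number above 7 into a low-input library kit and sequenced in pairs of reads, per the labels' protocols. The authors deposited raw counts per gene; per the submitters' processing notes the tools were bcl2fastq, STAR 2.7.2a and featureCounts of Subread 1.6.5 on build mm10. For the annotation release and the strand setting, not given in the sources used here, no assumption was made. Without strand, reads of overlapping genes cannot be told apart.

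Tests used edgeR 4.0.16 under R 4.3.3: filterByExpr (minimum count 10, total 15), TMM scaling, a robust quasi-likelihood fit of 4 group means with 8 residual degrees of freedom, two-sided F tests, and Benjamini-Hochberg adjustment over 17475 genes at 0.05. The scripts were tested on simulated data. Alternatives used DESeq2 1.42.0 and limma 3.58.1. The common biological coefficient of variation was 0.328, so spread between mice, more than depth, set the precision. No library was a copy of another of its group, since the chi-square between mice of a group was 18.1 to 61.4 times its degrees of freedom. Pairs of libraries across groups were not checked.

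All 10 genes were named. From each of 12 related lists up to 4 genes with the lowest p in the test of any group difference were named, with those near 0, and 5 genes likest to each group by correlation of log2 CPM (prior count 2). Members and lists were chosen with earlier results of these data known. The fit of the Xist-low libraries was chosen after seeing the data.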

Additional observations from a re-analysis of the deposited data

How the results depend on the processing

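No paired analysis was possible because the labels give no replicate numbers that link mice across groups. Of 1400 values of single members under other settings 1232 kept direction and side of the threshold, 78 lost a call, 47 gained one and 43 changed sign, of which 0 were called in either fit. Members called, 6 in combination over vehicle, became 0 with Xist as a covariate (1 to 5 when 1 library was left out). Member counts are not given for the fits without the 4 libraries lowest in Lyz2 or among Xist-low libraries, which leave 1 library in a group. Over 5-azacitidine the 3 called became 5 with no filter, with DESeq2 and with limma-voom, and 0 in a fit of those 2 groups. Leaving out 1 library, members called were 0 to 5 over 5-azacitidine and 2 to 4 over PD-901. Shares of all tested genes called moved too. In combination over vehicle they were 0% with Xist and 4.26% to 14.4% leaving out 1 library. Over 5-azacitidine they were 2.86% with no filter, 6% with DESeq2, 1.08% with limma-voom and 0.026% in those 2 groups. Leaving out 1 library, they were 0% to 3.88% over 5-azacitidine and 2.05% to 8.26% over PD-901. For 5-azacitidine over vehicle the 0 called became 1, Ear1, with no filter, beside 1.66% of all genes. The interaction gave 3 with no filter and 2 with DESeq2 (0 to 2 leaving out 1). The test among 4 groups gave 6 with no filter, DESeq2 or limma-voom and 0 with Xist (0 to 5 leaving out 1). In the interaction 1.16% of all genes were called with no filter, 1.65% with DESeq2 and 0% to 0.803% leaving out 1 library. Among the 4 groups the shares were 7.63% with no filter, 17.3% with DESeq2, 7.9% with limma-voom and 0.0343% with Xist. Leaving out 1 library, they were 0.0212% to 8.84%. The cause was not tested. Log2 changes that turned sign were as follows. With Xist as a covariate, PD-901 over vehicle gave 0.061 for Mcpt8, 0.095 for Prss34 and 0.11 for Cpa3, 5-azacitidine over vehicle 0.33 for Mcpt8, 0.39 for Fcer1a and 0.33 for Ms4a2, and Cpa3 in the combination 0.12 over vehicle and 0.0098 over PD-901. Without the Lyz2-low libraries, PD-901 over vehicle gave -0.032 for Fcer1a, -0.61 for Prg2, -0.50 for Epx and -0.076 for Ear1, Cpa3 under 5-azacitidine -0.33, Fcer1a in the combination -0.40 over vehicle, -0.37 over PD-901 and -0.019 over 5-azacitidine, and the interaction 0.042 for Ms4a2 and 0.026 for Siglecf. Among Xist-low libraries Cpa3 was 0.14 over PD-901 and Siglecf -0.052 over 5-azacitidine. Leaving out 1 library, PD-901 over vehicle spanned -0.45 to 0.025 for Mcpt8, -0.41 to 0.048 for Prss34, -0.45 to 0.31 for Cpa3, -0.0063 to 0.40 for Fcer1a, -0.17 to 0.61 for Prg2 and -0.24 to 0.62 for Epx. 5-azacitidine over vehicle spanned -0.56 to 0.10 for Mcpt8, -0.028 to 0.65 for Cpa3, -0.76 to 0.24 for Fcer1a and -0.40 to 0.052 for Ms4a2. The combination spanned -0.15 to 0.23 over PD-901 and -0.0030 to 1.01 over 5-azacitidine for Fcer1a, and -0.062 to 0.43 over 5-azacitidine for Siglecf; the interaction spanned -0.18 to 0.82 for Fcer1a and -0.34 to 0.16 for Siglecf.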
